A study of Mus musculus with 21 samples.

Results

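The Slc25 genes encode the mitochondrial carriers, and members were chosen by a name on the array of Slc25a followed by a number. The results cover 40 genes with 48 probes, out of 35527 gene and target names and 55681 probes on the array. Of these genes, 32 had 1 probe and 8 had 2. The rule uses names and no expression values.

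Mitochondrial carriers are membrane proteins built from repeated pairs of helices, and nearly all sit in the inner mitochondrial membrane, which is otherwise tight to charged metabolites. Each one swaps or admits a small set of substrates: ADP against ATP, phosphate, the acids of the citrate cycle and of the malate-aspartate shuttle, amino acids, coenzymes, or iron. In skeletal muscle they are known for passing ADP and phosphate in and ATP out, and for moving the reducing equivalents made by glycolysis into the matrix. Slow type 1 myofibers rely on oxidative metabolism and fast type 2B myofibers largely on glycolysis.

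Expression was measured in 21 single myofibers of CD1 mice at month 3 of age, with no treatment named in the labels, each amplified and hybridized to an Agilent array of its own. The labels give the mice as male and the study's methods as female, so their sex is not settled here. The soleus gave 11 type 1 myofibers and the extensor digitorum longus (EDL) gave 10 of type 2B, typed by their myosin heavy chain on a piece of the same myofiber. Each type came from 6 mice, and 3 of the 9 mice gave both. Fiber type and muscle cannot be told apart in this design, and several myofibers shared a mouse. A myofiber is named by its muscle, S or E, its number and its mouse. Values are log2 of the signal after quantile normalization, so that they are relative to the other transcripts of the myofiber: a lower amount of a transcript and a larger amount of all the others cannot be told apart, and levels are not compared between probes. Differences are type 2B minus type 1, so that a negative difference is a higher signal in type 1.

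The arrays matched the labeled types with 1 exception. All 8 probes of slow contractile genes were higher in type 1 and 7 of 10 probes of fast ones were higher in type 2B after Bonferroni adjustment, with the 10 of them past Benjamini-Hochberg. The type 1 myofiber S6.4 had a Myh7 signal of 9.22, against a type 1 median of 15.82 and a type 2B maximum of 7.84, together with the highest signal of Myh2, the myosin of type 2A myofibers, at 15.22. Without it, 2 and 5 Slc25 probes passed Bonferroni and Benjamini-Hochberg, the same numbers as with it. Slide 1, with 4 myofibers of each type, was brighter than the other 5 slides, with a 75th percentile of the signal of 335 to 520 against 52.8 to 180. Slide 4 held only type 2B, and slides 5 and 6 only type 1. Signal well above background was seen at 38.6% to 79.8% of an array's spots. The lowest normalized signal at that level was 5.61 to 6.26 on the type 2B arrays E7.7, E14.3, E12.5 and E15.3. In type 1 its highest values were 6.02 in S11.3 and 5.14 in S10.10. Of the markers of other cell types, those of endothelium, blood, fat and nerve had no probe past either adjustment. Among them the probes of Cdh5 and Hbb-b1 were not tested. The 3 satellite cell probes of Ncam1 passed Benjamini-Hochberg, 1 of them Bonferroni as well, all higher in type 1. The satellite cell probes of Pax7 and Myod1 did not pass, with differences of -1.37 and 0.020, and that of Myf5 was not tested. Of the connective tissue probes, that of Col3a1 passed Benjamini-Hochberg, higher in type 1. Those of Col1a1, Col1a2 and Dcn did not pass, and that of Pdgfra was not tested. The summed signal of the satellite cell probes was 1596 to 8486 in type 1 and 649.4 to 4620 in type 2B. That of the connective tissue probes was 280.9 to 4754 and 211.9 to 688.7. The sums were 362.3 to 8637 and 397.6 to 781.3 for blood, and 650.9 to 9935 and 95.8 to 6514 for fat. They were 1551 to 3674 and 1511 to 4189 for endothelium, and 24.3 to 174.3 and 24.0 to 181.2 for nerve. The part of these cell types in the results on Slc25 was not tested.

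The upstream sequence of the members with the largest differences is given first. Slc25a34 and Slc25a22 were the only Slc25 genes past Bonferroni adjustment, so the 250 bases before a start of each are printed (RefSeq, build GRCm38.p6, read along the gene, which is on the minus strand for both). The capitals mark the short nuclear receptor element AGGTCA in Slc25a34, on the opposite strand, and a match to a loose MEF2 pattern in Slc25a22. This pattern fixes only the outer letters and allows any base in the middle, so a match to it need not be a MEF2 site.
Slc25a34, chr4:141623835-141624084: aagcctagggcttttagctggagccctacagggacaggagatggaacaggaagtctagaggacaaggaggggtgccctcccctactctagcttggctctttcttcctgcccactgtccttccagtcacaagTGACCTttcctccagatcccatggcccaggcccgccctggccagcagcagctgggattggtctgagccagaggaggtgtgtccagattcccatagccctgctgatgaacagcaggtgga
Slc25a22, chr7:141435376-141435625: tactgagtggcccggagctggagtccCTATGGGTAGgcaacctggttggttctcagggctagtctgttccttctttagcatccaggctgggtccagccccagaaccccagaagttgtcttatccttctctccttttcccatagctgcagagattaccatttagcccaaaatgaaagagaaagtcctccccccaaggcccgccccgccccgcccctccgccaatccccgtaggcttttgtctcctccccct

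Both kinds of match occur in other promoters. Searched on both strands of the same window, the nuclear receptor element AGGTCA was present in 14.0% of 32851 mouse promoters and in 3 of 40 Slc25 promoters. These belonged to Slc25a34, Slc25a39 and Slc25a45, among the 31 Slc25 genes that had a promoter entry. The loose MEF2 pattern was present in 3.20% of all promoters, which is not a rate of MEF2 sites proper. Among Slc25 genes 2 held the loose pattern, Slc25a10 and Slc25a22, and the other 2 starts of Slc25a22 did not. The longer element of the estrogen-related receptors, TCAAGGTCA, which contains AGGTCA, occurred in 0.387% of all promoters and in no Slc25 promoter, and the NRF-1 site in 0.782% and in none. An E-box, CANNTG, was found in 66.2% of all promoters and in 27 of 40 Slc25 promoters. A match describes the letters only.

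The question of the design was how type 1 and type 2B myofibers differ, here in their carriers. The signal of 47 of the 48 probes passed the filter on dim probes and was tested, with 1 of the Slc25a46 probes below it. Bonferroni adjustment over 46922 probes left 2 Slc25 probes, both higher in type 1, those of Slc25a34 and Slc25a22. Over the whole array the share called was 1.43%, and the share called higher in type 1 was 0.821%. With Benjamini-Hochberg adjustment 5 Slc25 probes passed, against 7.57% of all probes. Of these, 4 were higher in type 1, where the share of all probes was 4.09%, and 1 was higher in type 2B, where it was 3.48%. The added probes were those of Slc25a23 and Slc25a3 in type 1 and of Slc25a27 in type 2B. Of the 47 Slc25 probes those past Bonferroni were 4.26%, those past Benjamini-Hochberg and higher in type 1 were 8.51%, and that higher in type 2B was 2.13%. The shares in type 1 were above those of the array and the share in type 2B below, on counts of 2, 4 and 1, and the family was not tested as a whole.

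At most Slc25 probes the 95% interval of the difference included 0. The median difference over the 47 probes was -0.17, with 26 below 0 and 21 above, and the median over all probes tested was 0.028. At 4 Slc25 probes, or 8.51%, the means of the type 1 mice and of the type 2B mice had no overlap, against 4.96% of all probes. At 12 probes the 95% interval of the difference lay within a factor of 2 in either direction. An unadjusted p below 0.05 in limma was found at 12 of the 47 Slc25 probes, or 25.5%, against 18.5% of all probes tested. The spread between myofibers of a type was 0.95 for the median Slc25 probe and 0.83 for the median of all probes tested.

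**Figure D1:**
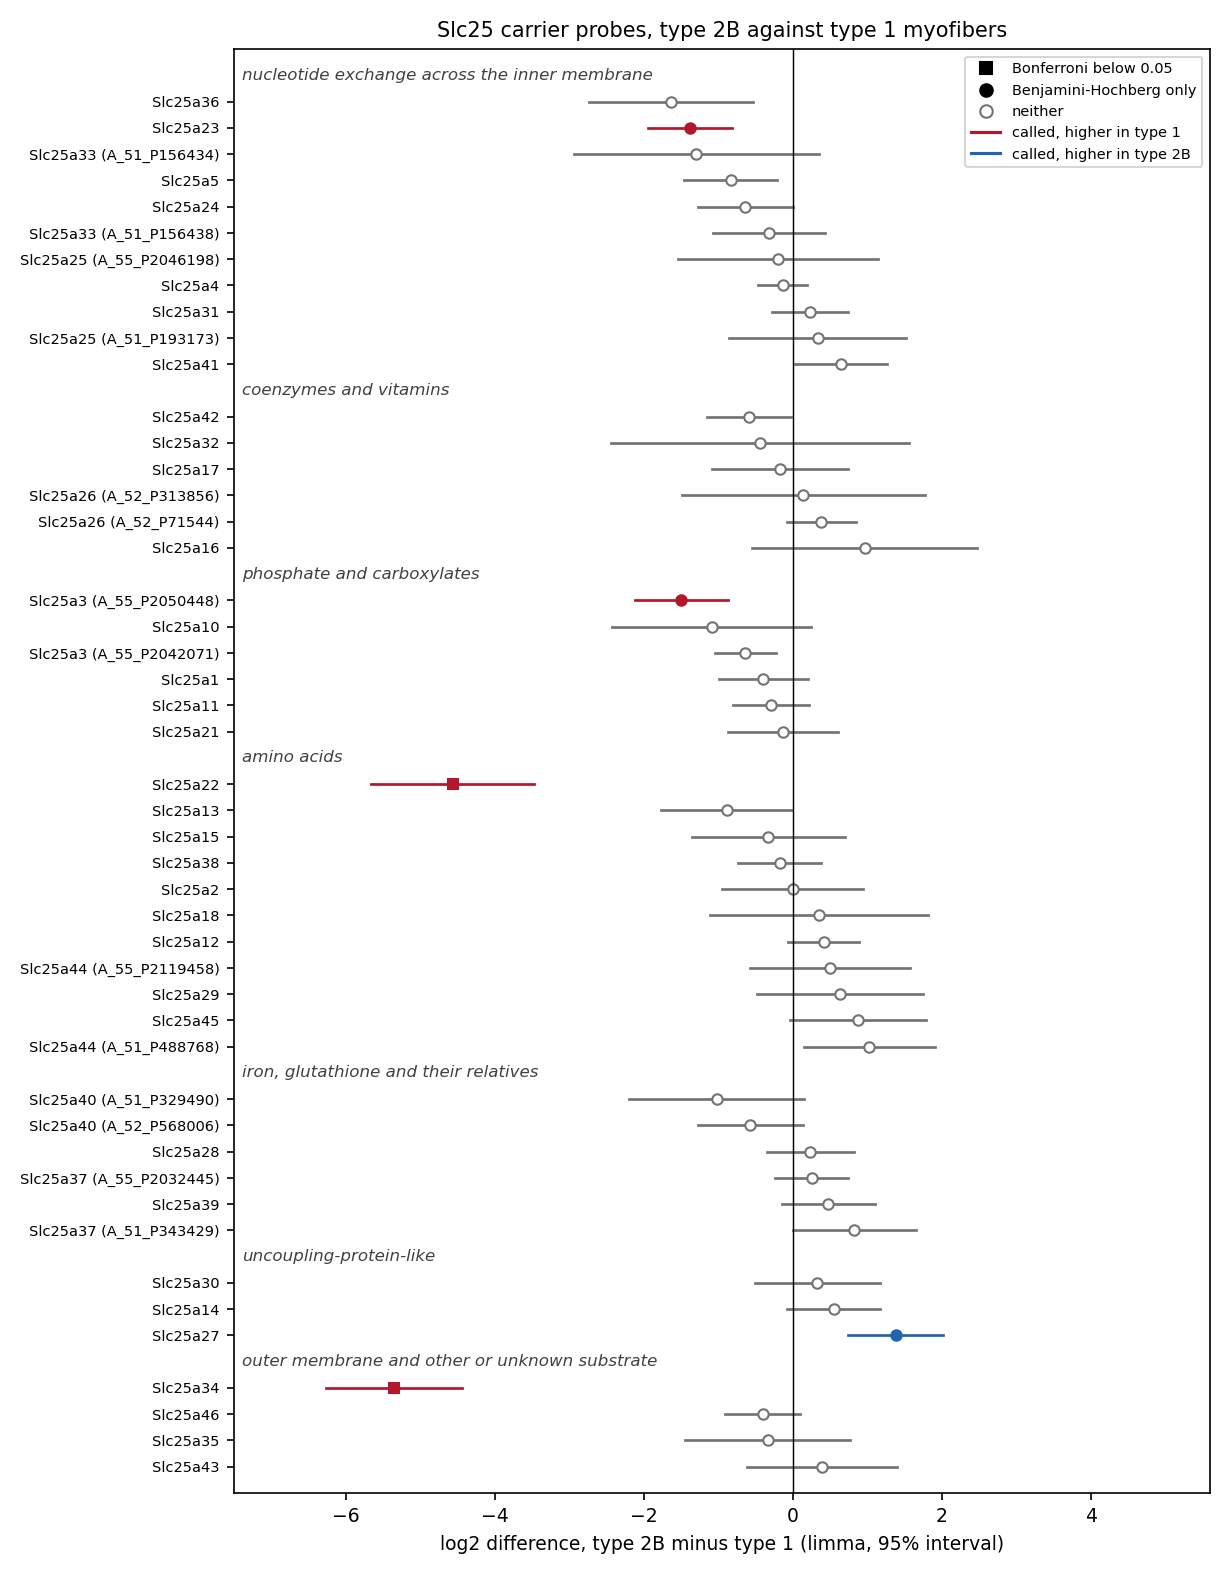
Log2 difference of each of the 47 tested Slc25 probes (type 2B minus type 1) from limma with its 95% interval, by substrate group (11 type 1 and 10 type 2B myofibers). Slc25a34 at -5.35 and Slc25a22 at -4.57 stand apart from the others, which lie between -1.63 and 1.38.

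Slc25a34, a carrier whose substrate in mammals is not settled, showed the largest difference of the family over the 21 myofibers. Its probe (A_55_P2073248, chr4:141174747-141174806, mm9) had a signal of 7.14 to 10.00 in type 1 with a median of 8.69, and of 2.01 to 6.003 in type 2B with a median of 2.82. Every type 1 myofiber lay above every type 2B myofiber. The difference was -5.35 (SE 0.44), or 40.8-fold higher in type 1 with a 95% interval of 21.6 to 76.9 (limma, Bonferroni adjusted p = 1.10e-06). The mouse means were 8.90 ± 0.92 and 3.50 ± 1.28 (SD, n = 6 mice each), and their exact permutation p was 0.0022, the smallest that 924 groupings allow. These groupings take the means as separate mice, although 3 mice gave a mean to each type. All 11 type 1 spots were well above background but only 4 of the 10 type 2B spots, so the low end of the comparison was near background. With the normexp background correction, which adds an offset of 50 to the signal, the difference was -2.52 and still passed Bonferroni (adjusted p = 8.75e-05).

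Slc25a22, which brings glutamate into the matrix with a proton, was the second. Its probe (A_55_P2042121, chr7:148615651-148615710) had a signal of 5.75 to 10.16 in type 1, median 8.28, and of 1.66 to 6.11 in type 2B, median 3.73. Only S6.4, at 5.75, fell within the range of type 2B, where E14.3 at 6.11 was the highest, and the other 10 type 1 myofibers lay above all of type 2B. The difference was -4.57 (SE 0.53), 23.7-fold higher in type 1 with an interval of 11.1 to 50.4 (limma, Bonferroni adjusted p = 5.63e-04). Without S6.4 it was -4.82 (limma, adjusted p = 8.77e-05). Its spots were well above background on 11 arrays of type 1 and 5 of type 2B, and with normexp the difference was -2.35 (limma, Bonferroni adjusted p = 0.00295). Without the 7 myofibers of mouse 3 the difference was -4.73 and the Bonferroni adjusted p was 0.0763 in limma. The other glutamate carrier, Slc25a18, had a difference of 0.35 (SE 0.70).

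Both differences were present in each slide that held both types. Within slide 1 the difference was -4.82 for Slc25a34 and -3.41 for Slc25a22, within slide 2 it was -5.79 and -6.62, and within slide 3 it was -6.88 and -4.89. Slide 1 had 4 myofibers of each type and the other two slides 2 of each, and a fit of slide 1 by itself left Slc25a34 past Bonferroni. When slide was fitted as a fixed block, the adjusted p of Slc25a22 was 0.119 (limma, Bonferroni). Inside the mice that gave both types, from a fit with fixed mouse effects, the differences were -5.14 (SE 0.48) and -4.58 (SE 0.84), and the Bonferroni adjusted p of limma was 0.00128 for Slc25a34 and 1 for Slc25a22.

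**Figure D2:**
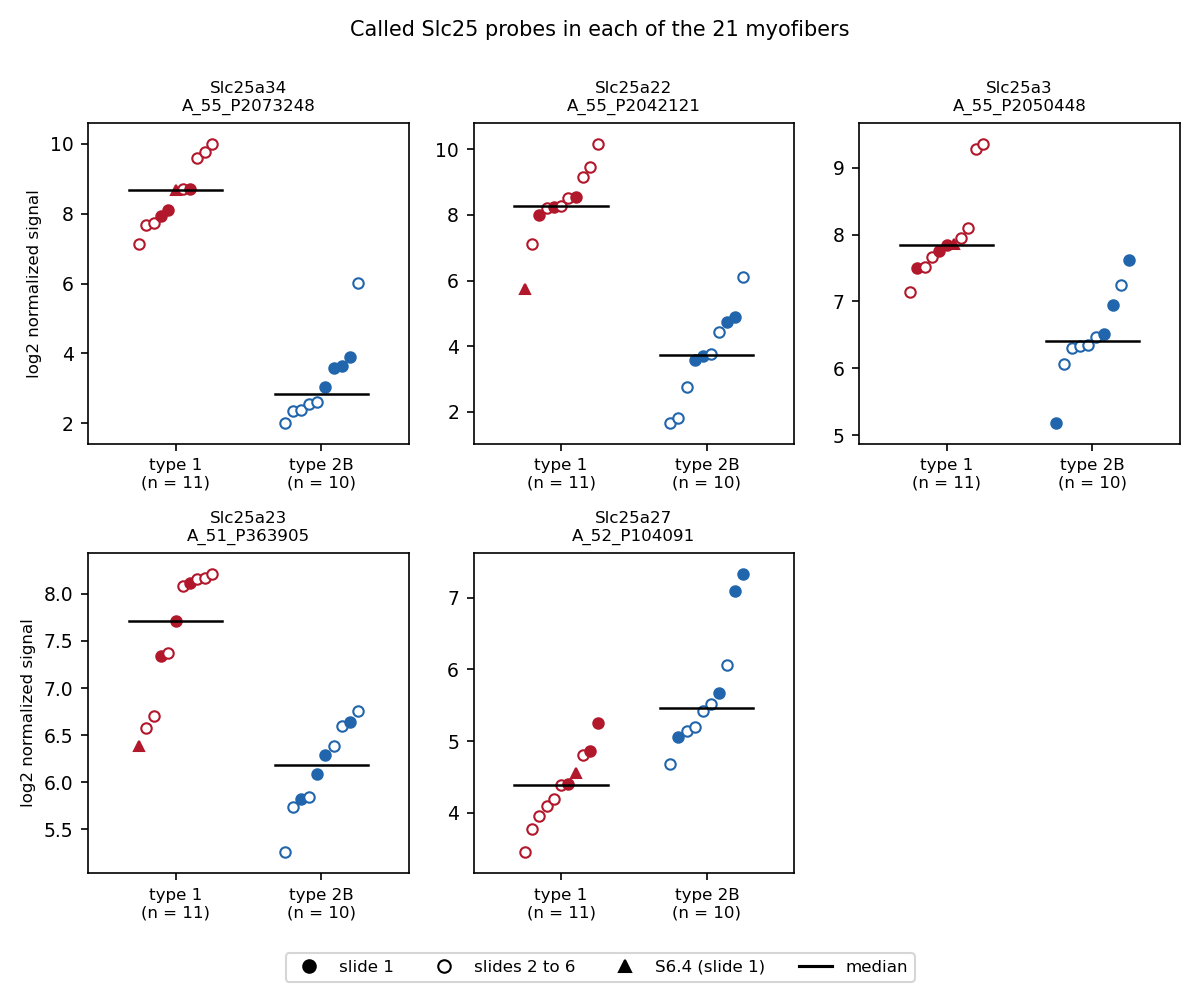
Log2 normalized signal of the 5 Slc25 probes past Benjamini-Hochberg adjustment in each myofiber, with the median of each type as a bar, each panel on its own scale (11 type 1 and 10 type 2B). The types are apart without overlap for Slc25a34 and share a range in the other 4 panels.

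The nucleotide carriers were the largest group with the amino acid carriers, at 11 probes of 9 genes, and 1 passed Benjamini-Hochberg. The median difference of the group was -0.32, with 8 below 0. The one called, Slc25a23 (A_51_P363905, chr17:57183867-57183926), exchanges ATP-Mg for phosphate and binds calcium. Its signal was 6.38 to 8.21 in type 1, median 7.71, and 5.26 to 6.75 in type 2B, median 6.19. In 8 of 11 type 1 myofibers it was above all type 2B myofibers, and the 3 lowest type 1 values were inside the type 2B range. The difference was -1.38 (SE 0.27), 2.61-fold higher in type 1 (limma, Benjamini-Hochberg adjusted p = 0.00146), and it was -1.18, -2.00 and -1.50 within slides 1, 2 and 3. Of its relatives, the calcium-binding Slc25a24, well above background in 1 myofiber of all 21, had a difference of -0.64. Slc25a41, a relative without the calcium-binding part, had 0.65. Neither passed, and the calcium-binding Slc25a25 is given below.

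The ADP/ATP carriers, which export the ATP made in the matrix, showed no called difference. Slc25a4, the muscle form (A_51_P108334, chr8:47292828-47292887), had a signal of 15.60 to 16.34 in type 1, median 16.06, and of 15.40 to 16.31 in type 2B, median 15.88. The types overlapped almost throughout. The difference was -0.13 (SE 0.16), with a 95% interval of -0.46 to 0.19, and it was 0.12 with 75th percentile scaling, so that its direction was not settled. Its within-type spread of 0.24 was the smallest of the family. Slc25a5, the form of many tissues (A_55_P2177103, chrX:34338580-34338639), had 8.22 to 10.53 in type 1, median 10.06, and 8.04 to 9.81 in type 2B, median 8.95. In 6 of 11 type 1 myofibers it was above all of type 2B. Its difference of -0.83 (SE 0.30) did not pass (limma, Benjamini-Hochberg adjusted p = 0.110). Slc25a31, known from the testis (A_51_P329003, chr3:40528804-40528863), exceeded background clearly on 2 arrays of type 1 and 1 of type 2B, with a signal of 1.92 to 3.30 and 2.17 to 3.72. Its difference was 0.24 (SE 0.25).

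Slc25a25, a calcium-binding ATP-Mg carrier, varied widely between myofibers of 1 type, and neither of its probes passed. At 1 of its probes (A_51_P193173, chr2:32270275-32270334) the signal was 7.79 to 12.79 in type 1, median 10.03, and 8.29 to 12.00 in type 2B, median 10.37. At the other (A_55_P2046198, chr2:32270490-32270549) it was 6.01 to 12.01, median 8.71, and 6.82 to 11.50, median 8.96. Both probes put S7.3 lowest and S11.3 highest in type 1, and E7.7 lowest and E10.4 highest in type 2B. The differences were 0.33 (SE 0.57) and -0.20 (SE 0.65), opposite in sign. Within slide 1 they were 2.12 and 0.75, and within slide 3 they were -1.50 and -1.47, so the direction differed between slides.

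The pyrimidine nucleotide carriers Slc25a33 and Slc25a36 had lower values in type 2B that did not pass. Slc25a36 had 5.75 to 9.52 in type 1 and 4.46 to 8.87 in type 2B, and a difference of -1.63 (SE 0.53; limma, Benjamini-Hochberg adjusted p = 0.0663). The probes of Slc25a33 differed by -1.29 (SE 0.80) and -0.32 (SE 0.36).

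All 6 probes for phosphate and the carboxylates had a difference below 0, from -1.49 to -0.13 with a median of -0.52, and 1 passed Benjamini-Hochberg. It was a probe of Slc25a3, the phosphate carrier that supplies ATP synthesis (A_55_P2050448, chr10:90579341-90579400). Its signal was 7.14 to 9.36 in type 1, median 7.85, and 5.18 to 7.63 in type 2B, median 6.41. In 8 of 11 type 1 myofibers it was above all of type 2B. The difference was -1.49 (SE 0.30), 2.82-fold higher in type 1 (limma, Benjamini-Hochberg adjusted p = 0.00193), and it was -1.18, -2.45 and -1.62 within slides 1, 2 and 3. A second Slc25a3 probe 198 bases away (A_55_P2042071, chr10:90579539-90579598) had 12.39 to 13.56 in type 1, median 12.97, and 11.78 to 12.99 in type 2B, median 12.43. Its difference was -0.64 (SE 0.20), in the same direction and just short of the threshold (limma, Benjamini-Hochberg adjusted p = 0.0505).

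Slc25a11, which exchanges oxoglutarate for malate in the malate-aspartate shuttle (A_51_P267454, chr11:70457739-70457798), had 11.38 to 12.70 in type 1, median 12.14, and 10.88 to 12.62 in type 2B, median 11.72. The types overlapped, with a difference of -0.29 (SE 0.25). The dicarboxylate carrier Slc25a10 had -1.09 (SE 0.64), the citrate carrier Slc25a1 -0.40 (SE 0.29) and the oxodicarboxylate carrier Slc25a21 -0.13 (SE 0.36).

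Apart from Slc25a22, none of the 11 amino acid probes passed, and 7 of the 11 were above 0. The aspartate/glutamate carriers are the other transporters of the malate-aspartate shuttle. Slc25a12, the form of muscle and brain (A_51_P430620, chr2:71112979-71113038), had 11.58 to 13.31 in type 1, median 12.21, and 11.79 to 13.23 in type 2B, median 12.65. S6.4 was the highest type 1 myofiber and the other 10 were at most 12.42. The difference was 0.42 (SE 0.23). Slc25a13, the form of liver (A_51_P251352, chr6:5991482-5991541), had 4.79 to 9.24 in type 1, median 5.98, and 4.15 to 5.99 in type 2B, median 5.24. S11.3 was the highest type 1 myofiber for Slc25a13 and the other 10 were at most 6.71. The difference of Slc25a13 was -0.89 (SE 0.42, limma, Benjamini-Hochberg adjusted p = 0.262), and -1.01 to -0.56 without any 1 myofiber. Slc25a44, a carrier of branched-chain amino acids, had 1.03 (SE 0.43) and 0.50 (SE 0.52) at its probes, and the glycine carrier Slc25a38 had -0.17 (SE 0.27).

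**Figure D3:**
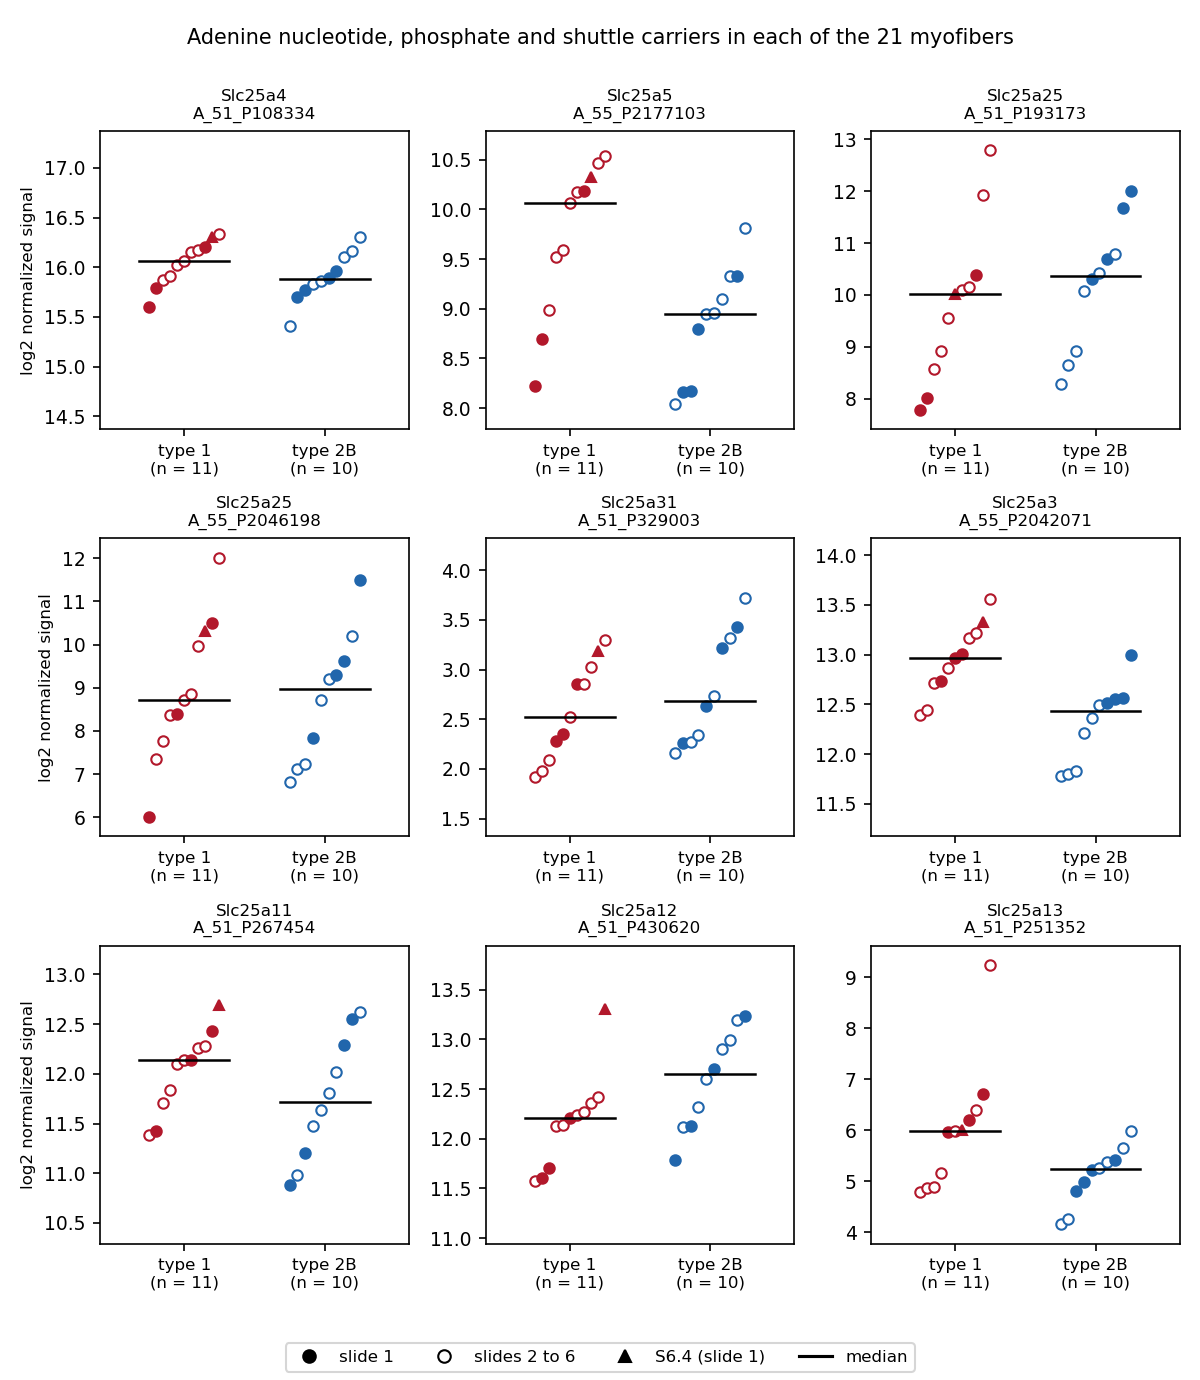
Log2 normalized signal in each myofiber for the other probes of the ADP/ATP, ATP-Mg, phosphate and shuttle carriers, with the median of each type as a bar, each panel on its own scale (11 type 1 and 10 type 2B). The types overlap in every panel, with medians of 16.06 and 15.88 for Slc25a4, and the myofibers of 1 type spread over 7.79 to 12.79 for Slc25a25.

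The Slc25 probe higher in type 2B was that of Slc25a27. This gene, also called UCP4 and known from brain (A_52_P104091, chr17:43779088-43779147), had 3.45 to 5.26 in type 1, median 4.39, and 4.69 to 7.34 in type 2B, median 5.47. In 6 of 10 type 2B myofibers it was above all of type 1. The difference was 1.38 (SE 0.31), 2.60-fold higher in type 2B (limma, Benjamini-Hochberg adjusted p = 0.00505). Only 5 type 1 and 6 type 2B spots were well above background, with normexp the difference was 0.51, and with spots that were not positive and significant set to missing the adjusted p was 0.332 (limma, Benjamini-Hochberg). Within slides 1, 2 and 3 the difference was 1.52, 1.71 and 1.44, and without mouse 3 the adjusted p was 0.0723 (limma, Benjamini-Hochberg). The other uncoupling-protein-like members, Slc25a14 and Slc25a30, were also above 0 at 0.55 (SE 0.30) and 0.33 (SE 0.41) and did not pass.

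None of the 6 coenzyme probes passed, with differences from -0.59 for Slc25a42, a carrier of coenzyme A, to 0.97 for Slc25a16 and a median of -0.014. Slc25a32, the folate carrier, had the widest spread within a type of the family, at 2.40. Slc25a26, the carrier of S-adenosylmethionine, had 0.14 (SE 0.79) and 0.39 (SE 0.22) at its probes, and the peroxisomal carrier Slc25a17 had -0.17 (SE 0.44).

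**Figure D4:**
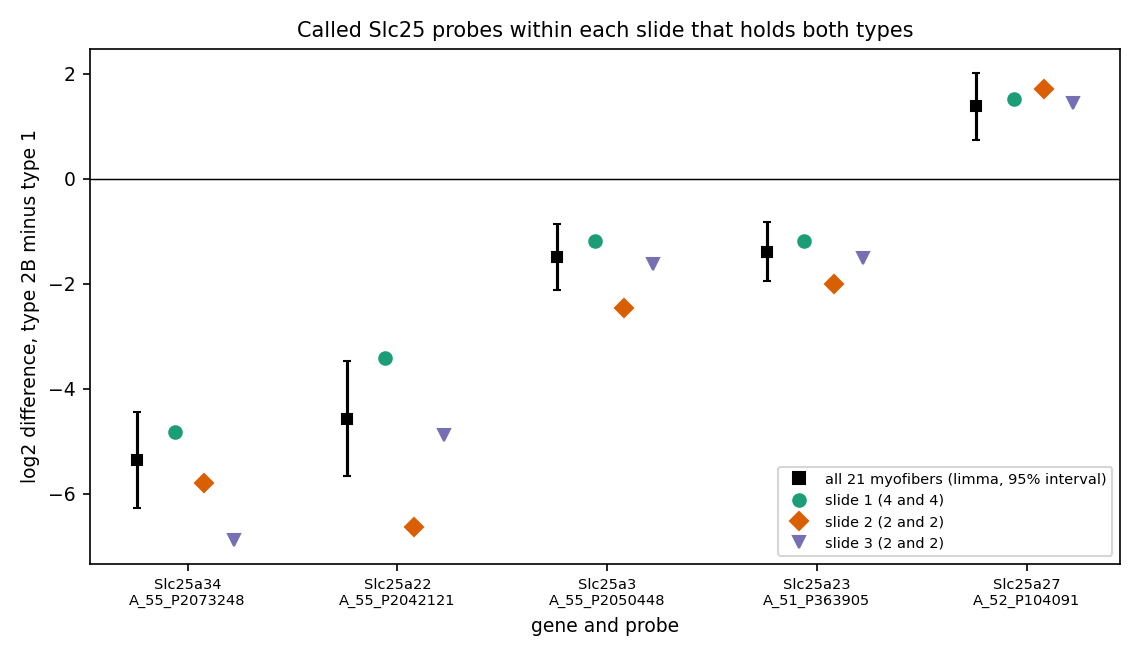
Log2 difference of the 5 called Slc25 probes (type 2B minus type 1) over all 21 myofibers (squares, limma with 95% interval) and within each of the 3 slides that hold both types (means of 4 and 4, 2 and 2, and 2 and 2 myofibers). Each probe has the same sign in the 3 slides, from -6.88 for Slc25a34 in slide 3 to 1.71 for Slc25a27 in slide 2.

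The iron and glutathione carriers showed no called difference. The mitoferrins Slc25a28 and Slc25a37 had differences of 0.24 (SE 0.28) at the only probe of the first, and of 0.83 (SE 0.40) and 0.25 (SE 0.24) at the probes of the second. Slc25a39, which brings glutathione into the matrix, had 0.48 (SE 0.30), and its paralog Slc25a40 had -1.02 (SE 0.57) and -0.57 (SE 0.34). Slc25a46, a member of the outer membrane, had -0.41 (SE 0.24) at the probe tested. Slc25a35, a close relative of Slc25a34, had -0.34 (SE 0.54), and Slc25a43 had 0.39 (SE 0.49).

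Of the 8 genes with a pair of probes, 6 had the same sign at both, Slc25a25 had opposite signs, and Slc25a46 had 1 probe tested. At 10 Slc25 probes under 50% of the myofibers of each type were well above background. No type 2B myofiber reached that level for Slc25a24 and no type 1 myofiber for Slc25a45, and no fold is given for them because only 1 myofiber of the other type did.

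Other genes of mitochondrial transport were set beside the carriers. The list had 37 probes of 27 genes, of which 36 probes were tested. The median difference was -0.24, against 0.028 over all probes tested. After Bonferroni adjustment 1 probe was higher in type 1 and 2 in type 2B, against 1.43% of all probes called in either direction. Those higher in type 2B were the enzymes of the glycerol phosphate shuttle, the route that takes reducing equivalents from the cytosol to the respiratory chain without a carrier of the inner membrane. Gpd1, its cytosolic enzyme, had 7.72 to 10.16 in type 1, median 9.02, and 13.06 to 14.06 in type 2B, median 13.53. The types did not overlap, with a difference of 4.36 (SE 0.27; limma, Bonferroni adjusted p = 2.41e-09). Gpd2, the mitochondrial enzyme, had 7.68 to 9.78 in type 1, median 7.97, and 10.63 to 13.80 in type 2B, median 11.81. Here too the types did not overlap, and the difference was 3.63 (SE 0.35; limma, Bonferroni adjusted p = 2.03e-05). Gpd1 also passed without mouse 3 and with 1 mean per mouse and type, while the adjusted p of Gpd2 was then 0.144 and 0.0527 (limma, Bonferroni).

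The enzymes of the malate-aspartate shuttle all had a difference below 0. Mdh1, the cytosolic malate dehydrogenase, had 13.87 to 14.78 in type 1, median 14.14, and 12.21 to 13.15 in type 2B, median 12.80. Its types did not overlap, with a difference of -1.50 (SE 0.18; limma, Bonferroni adjusted p = 8.39e-04). For Mdh1 the adjusted p was 0.297 without mouse 3, 0.563 with 1 mean per mouse and type, and 1 with the mouse as a fixed block (limma, Bonferroni). Got1, Got2 and Mdh2 had differences of -0.55, -0.61 and -0.03 and did not pass. The values of the shuttle's carriers are those given for Slc25a11, Slc25a12 and Slc25a13, none of which passed.

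Ccdc109a, now Mcu, the pore of the calcium uniporter, had -0.21 (SE 0.33). Ucp2, a carrier of the same family with another name, had 6.11 to 11.36 in type 1 and 1.77 to 5.92 in type 2B, without overlap, and passed Benjamini-Hochberg with a difference of -3.74 (SE 0.71; limma, adjusted p = 9.61e-04). Only 5 of its 10 type 2B spots were well above background, against all 11 of type 1, and with normexp the difference of Ucp2 was -1.95 (limma, Benjamini-Hochberg adjusted p = 0.0166). The muscle form Ucp3 had -0.37 (SE 0.57) and -0.49 (SE 0.53) at its probes. None of the 3 pyruvate carrier probes, the 3 porin probes or the 10 probes for insertion of carriers passed either adjustment, and their differences were between -0.83 and 0.67.

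**Figure D5:**
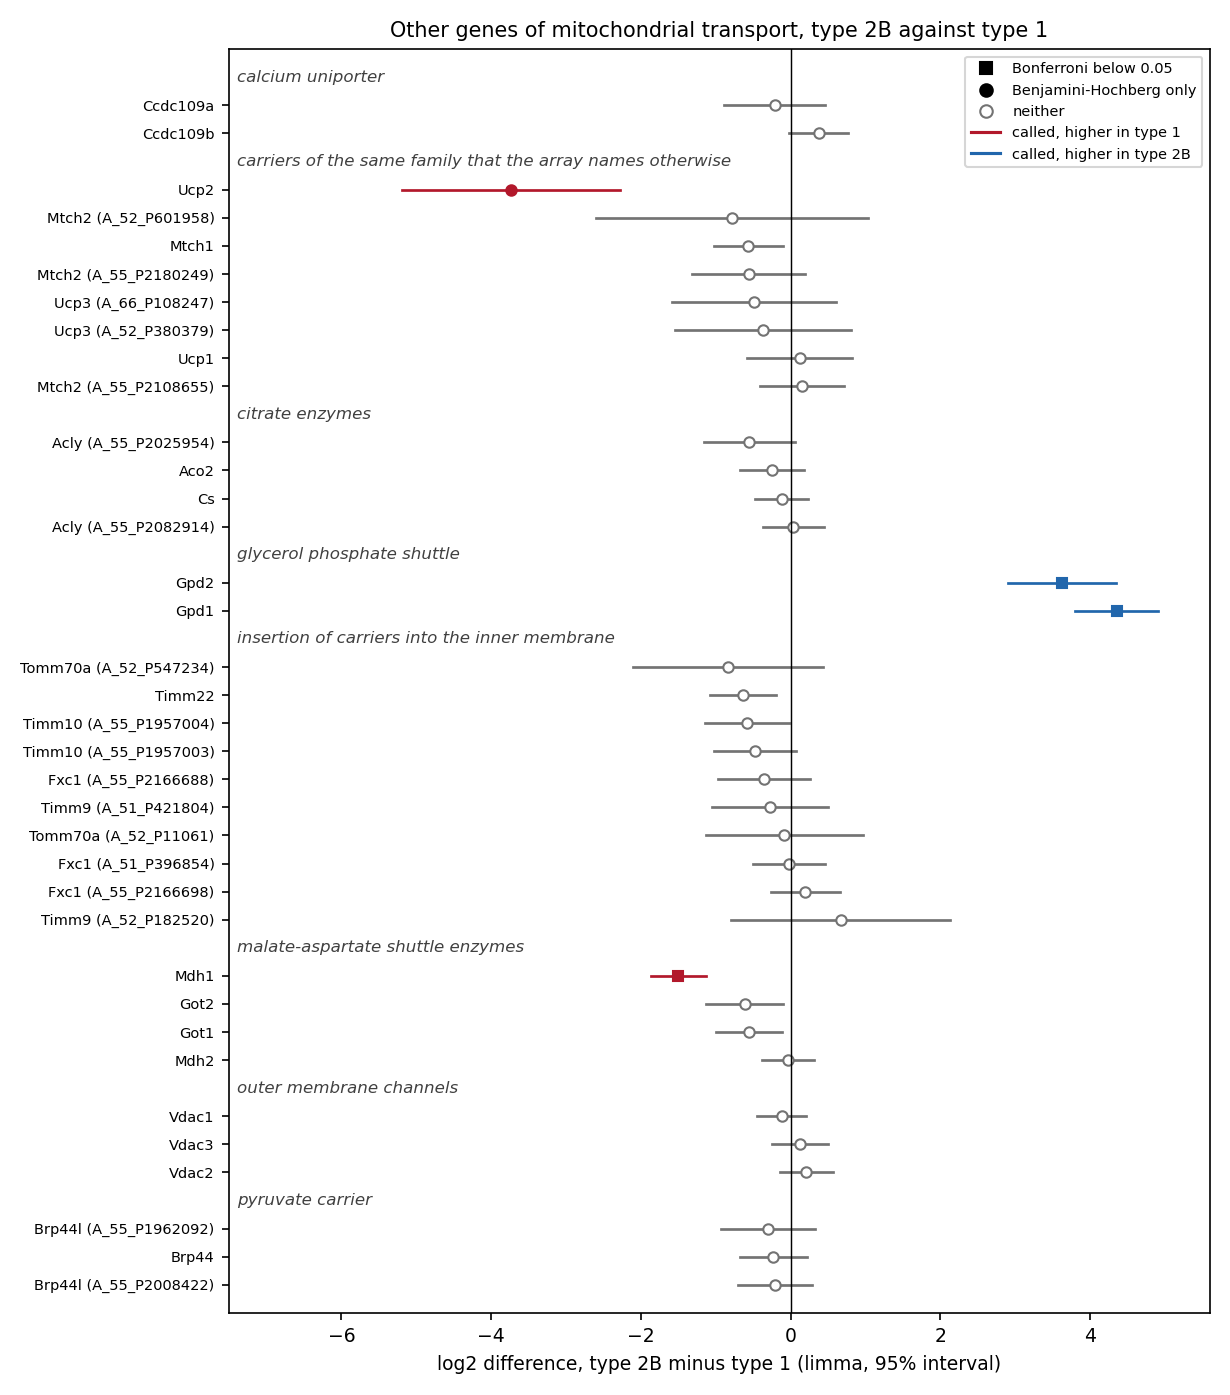
Log2 difference of each of the 36 tested probes of other mitochondrial transport genes (type 2B minus type 1) from limma with its 95% interval, grouped by role (11 type 1 and 10 type 2B myofibers). Gpd1 at 4.36 and Gpd2 at 3.63 lie on the type 2B side, and Ucp2 at -3.74 and Mdh1 at -1.50 on the type 1 side.

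Transcripts of respiratory chain and ATP synthase subunits were set beside those of the carriers. Of 135 probes tested, 111 had a difference below 0, with a median of -0.22, a lowest of -1.99 and a highest of 1.04. Bonferroni called 2 of them and Benjamini-Hochberg 11 as higher in type 1, and 0 and 1 as higher in type 2B. Of all 46922 probes tested, 22371 had a difference below 0. Over the array, Bonferroni called 0.821% and Benjamini-Hochberg 4.09% as higher in type 1, and Benjamini-Hochberg 3.48% as higher in type 2B. No list here was tested as a whole.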

How the data were processed

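Single myofibers were measured on 1-color arrays with Cy3 after amplification with the TransPlex Whole Transcriptome Amplification 2 kit. The deposited intensity of each spot is the Feature Extraction 10.7.3.1 processed signal, background-subtracted and detrended within the array by the authors' software and not normalized between arrays. Here it was quantile normalized (limma 3.58.1, R 4.3.3) and taken as log2, without control spots and outlier-flagged spots, and spots of a probe were averaged. limma was fitted with mouse as a random block (statmod 1.5.0) to the probes flagged positive and significant in no fewer than 50% of either type's myofibers. The correlation estimated within a mouse was -0.017, so this fit came close to taking the myofibers as independent. With the mouse ignored, 675 probes of the array passed Bonferroni, against 672 with the block. Bonferroni adjustment at 0.05, the rule of the study's methods, and Benjamini-Hochberg were taken over all 46922 probes. Other steps used Python 3.11.15 with pandas 2.3.3, numpy 2.4.6, matplotlib 3.10.9 and scipy 1.17.1. The scripts were tested on simulated data.

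The members, lists and named probes were chosen with earlier results of these data known, and some genes that fit them are not reported here. Named in full were every Slc25 probe past either adjustment and all probes of Slc25a4, Slc25a5, Slc25a31, Slc25a3, Slc25a11, Slc25a12, Slc25a13 and Slc25a25. Probe positions are those of the array design (mm9), and their place in the transcript was not analysed here. The normalized table deposited by the authors was not used, because it gives no value for a Slc25 probe. The alternatives changed background correction, scaling, filters, the handling of mouse, slide, scan day and replicate number, the test, and the myofibers and mice included. The number of arrays limits the precision. Replicate numbers did not pair the samples (median correlation of the deviations of 10 same-numbered pairs -0.028).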

Additional observations from a re-analysis of the deposited data

Results flagged for a closer look

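In type 2B, the myofiber E11.9 had a Slc25a34 signal of 6.003, far above the other 9 type 2B myofibers, of which the next was at 3.88. The gap was 0.532 of the range of the 10 type 2B myofibers. Without E11.9 the difference in Slc25a34 was -5.66 (limma, Bonferroni adjusted p = 1.77e-08). This check was run 14 times on the 14 named probes, so not in both types of every probe, and chance marks about 1 in 20 groups. Type 1 also held myofibers that stood apart. S11.3 did so at the Slc25a13 probe, at 9.24 with the next type 1 myofiber at 6.71. S6.4 did so at the Slc25a12 probe, at 13.31 with the next at 12.42.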

How the results depend on the processing

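Slc25a34 passed Bonferroni under all 15 other ways of processing, without each myofiber and without each mouse, with differences of -5.71 to -2.52 outside the analyses within 1 slide. Under the same 15, Benjamini-Hochberg kept Slc25a22 and Slc25a23 in 15, the called Slc25a3 probe in 14 and Slc25a27 in 12. The number of Slc25 probes past Bonferroni was 2, and 2 higher in type 1, without any 1 myofiber and 1 to 2 without any 1 mouse, with 1 left without mouse 3. It was 1, higher in type 1, with the mouse as a fixed block, with slide as a fixed block, within slide 1 and with the replicate block, and 0 within slides 2 and 3. By Benjamini-Hochberg in place of Bonferroni it was 5, of which 4 were higher in type 1 and 1 in type 2B. By a t-test with unequal variances it was 2, or 6 after Benjamini-Hochberg, of which 5 were higher in type 1 and 1 in type 2B. The study's methods took the p-values of their t-test by permutation, which was not done here. The Benjamini-Hochberg count was 5 to 6 without any 1 myofiber and 4 to 6 without any 1 mouse, with 4 without mouse 3, 3 with the mouse as a fixed block, 5 with the replicate block, 3 within slide 1 and 0 within slides 2 and 3. The 3 calls among the other transport probes were 2 with the mouse as a fixed block, 1 with 1 mean per mouse, 1 with the replicate block, 0 within any 1 slide, 3 without any 1 myofiber and 1 to 3 without any 1 mouse, with 1 without mouse 3. Wherever 1 was left it was Gpd1, and where 2 were left Mdh1 had dropped out. Replicate numbers did not pair the samples, and under the replicate block all probes past Bonferroni fell from 672 to 331. Differences that changed sign were those of Slc25a4 (0.12 with 75th percentile scaling), Slc25a11 (0.0052 with the mouse as a fixed block and 0.23 within slide 3), Slc25a31 (-0.089 with spots not positive and significant set to missing, -0.48 within slide 2) and Slc25a25. For its probe A_51_P193173 the value was -1.50 within slide 3. For A_55_P2046198 it was 0.16 with the mouse and 0.23 with slide as a fixed block, 0.75 and 0.91 within slides 1 and 2, 0.069 with the probes of a gene averaged, and -0.50 to 0.070 without any 1 myofiber, where S11.3 and E7.7 each turned the sign, and -0.36 to 0.014 without any 1 mouse, where mouse 7 did. None of these 5 probes had passed. The cause was not tested.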
